A study of Homo sapiens with 10 samples.

Results

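The calnexin cycle is the quality control of N-glycosylated proteins in the endoplasmic reticulum (ER), and 10 of its genes were examined here among the 32738 genes of the count table. They were taken by symbol: CALR and CANX, UGGT1 and UGGT2, MOGS, GANAB and PRKCSH, and EDEM1, EDEM2 and EDEM3. Each had 1 row in the table, and all 10 passed the filter on low counts, which left 12733 genes for testing. The cells were HepG2, a human hepatoma line of hepatocyte character, cultured for 17 h in regular growth medium (control) or in medium with 2 µg/ml tunicamycin. 5 libraries per condition came from experiments on separate days, so the data describe a single cell line at a single dose and time. Sequencing covered the 3′ end of each mRNA.

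N-glycans are built on a lipid carrier, dolichol, and transferred as a preformed block to proteins entering the ER. Tunicamycin blocks the first step of that assembly, which is carried out by DPAGT1, so that new proteins lack N-glycans. Glucosidase I (MOGS) and glucosidase II (the catalytic subunit GANAB and the regulatory subunit PRKCSH) trim the glucoses of the block. The lectins calnexin (CANX, membrane-bound) and calreticulin (CALR, soluble) then hold the monoglucosylated protein while it folds. The UGGT enzymes sense unfolded regions and put a glucose back, which returns the protein to the lectins. The EDEM proteins promote the removal of mannoses from proteins that do not fold and send them to degradation. Liver cells secrete many glycoproteins and depend on this cycle.

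The libraries held 2234682 to 5029864 counts, and tunicamycin replicates 4 and 5 were the shallowest. Mitochondrial transcripts took 18.3% to 28.8% of the counts, the most in tunicamycin replicate 4. Levels are given as CPM, the standard scaling of counts to library size, with library sizes adjusted by TMM. The hepatocyte genes ALB and AFP had 2568 ± 403 and 2614 ± 1174 CPM in control cells (SD, n = 5). Of 6 hepatocyte genes, APOA1, APOB and TTR were called lower with tunicamycin (log2 fold changes of -0.91, -0.78 and -1.02). The other 3, ALB, AFP and HNF4A, were not called. The share lower was 50%, against 16.6% of all genes tested. The blood cell gene PTPRC and the fibroblast gene COL1A2 had 0 counts in every library, and COL1A1 had 5 counts in a single library. The treatment was visible in HSPA5, the ER chaperone BiP, which was 7.84-fold higher, and in HERPUD1 (6.86-fold) and DDIT3 (2.67-fold). Because a transcript gives about 1 fragment in 3′ libraries, levels of different genes were compared without dividing by length. Whether 3′ ends of different genes were captured equally was not tested, so orders and ratios across genes are those of counts. As bulk RNA was measured, fewer cells with a transcript and less of it per cell cannot be told apart.

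With tunicamycin, 7 of the 10 genes rose and none fell (edgeR's quasi-likelihood test, adjusted p under 0.05). For comparison, 17.6% of all genes tested were called higher and 16.6% lower. No member had an unadjusted p under 0.05 in the downward direction, and DESeq2 also called 7 higher and 0 lower. By role, both lectins, both UGGT genes and all 3 EDEM genes rose, and none of the 3 glucosidase genes passed the test. The median log2 fold change was 1.52 for the EDEM genes, 1.04 for the lectins, 0.43 for the UGGT genes and -0.03 for the glucosidase genes. Over all 10 it was 0.58, while all genes tested had a median of 0.00. Every tunicamycin library lay above every control library for 6 of the 10, against 11.7% of all genes tested.

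**Figure D1:**
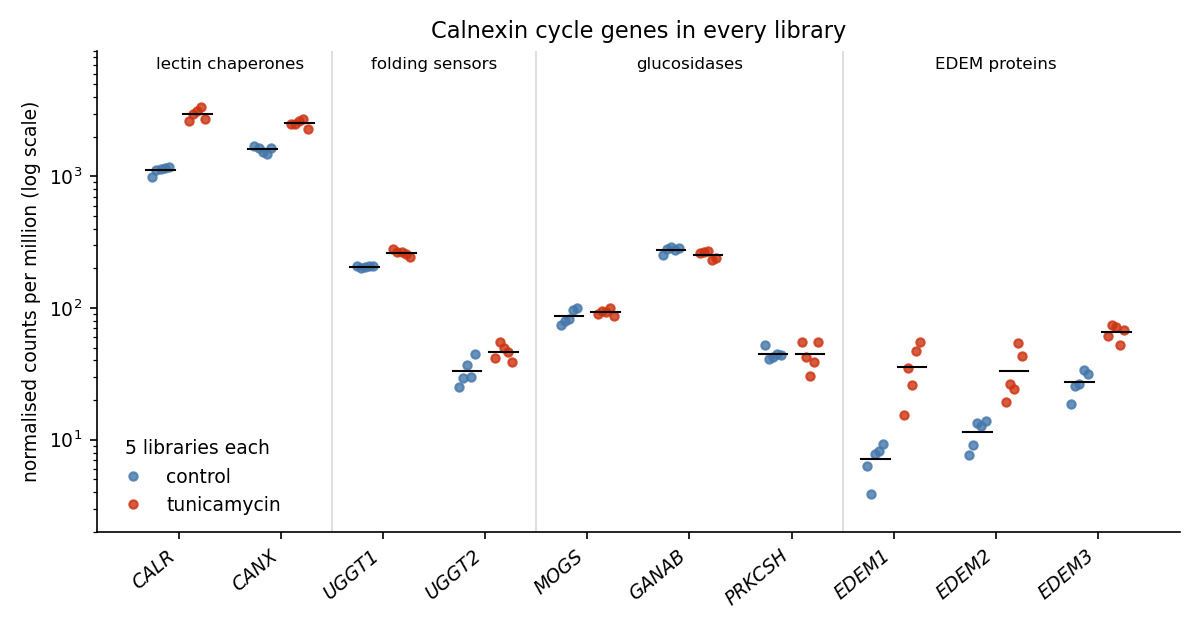
Levels of the 10 genes in each library, in CPM on a log axis; each point is a library, 5 control (blue) and 5 tunicamycin (red) per gene, and black bars are means. The points of both conditions lie apart for CALR, CANX, UGGT1, EDEM1, EDEM2 and EDEM3, and overlap for UGGT2, MOGS, GANAB and PRKCSH.

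A RefSeq promoter of each lectin gene holds the full ER stress response element, and these sequences are shown because CALR and CANX are the most abundant members and both rose. The element consists of CCAAT and CCACG with 9 bases between them and is known as a site of the stress factor ATF6 together with NF-Y. RefSeq promoters on GRCh38.p14, from 250 bases before to 50 after the start, were found for 9 of the 10 genes, all but MOGS. Both strands were searched. The letters of the element are in capitals. Each sequence is given on the plus strand, which is the strand of both genes, and in CALR the element is on the other strand, so that its reverse complement is seen.
CALR, chr19:12938379-12938407: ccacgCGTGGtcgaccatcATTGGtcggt
CANX, chr5:179698773-179698801: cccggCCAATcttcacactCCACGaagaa

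The CALR stretch spans positions -230 to -202 from the RefSeq start and lies in no annotated exon. The CANX stretch lies at -156 to -128 from 1 RefSeq start and at -194 to -166 from a second. At another start the element itself spans -9 to 10, and the window of the remaining CANX entry does not hold it. The stretch falls within an exon of an alternative CANX transcript in GENCODE. Of 34796 different promoters, 27 held this element, or 0.0776%. Its other form, ATTGG and CCACG with 1 base between them, was in no member's window and in 0.0546% of promoters. TGACGTGG, the core bound by XBP1 and ATF6, was in 0.733% of promoters, and TGATGNAA, an ATF4-type element, was in 3.63%, and neither was in a member's window. TGACGTGG contains CCACG on its opposite strand, so these searches overlap. CALR and CANX were thus the only 2 of the 9 members with any of the 4 elements in this window.

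EDEM1, the member with the largest rise, held both 5-base sequences, but without that spacing. Its stretch from -170 to -73 is shown for comparison, with each CCACG (here as CGTGG on the opposite strand) and CCAAT in capitals. An exon of ENSG00000268509, read on the opposite strand, lies over it.
EDEM1, chr3:5187537-5187634: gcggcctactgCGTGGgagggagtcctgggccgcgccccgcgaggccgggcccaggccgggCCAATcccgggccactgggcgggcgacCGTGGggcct

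Alone, CCACG was in 38% and CCAAT in 34.6% of promoters, and each was in 6 of the 9 members' windows. Among all genes, 25 symbols had a promoter with the full element and 14 of these were tested. As a description of genes chosen by sequence after the member values had been seen, 11 of the 14 were called higher (78.6%, against 17.6% of all genes tested) and 1 lower (against 16.6%), with a median log2 fold change of 1.43. Without CALR and CANX, 9 of 12 were called higher with a median of 1.52, and 2 were not called. These 12 still include HSPA5 (2.97), used above as a check of the treatment, so they are no independent set. Whether the element had a part in any of these changes was not tested. The one called lower was XBP1 (log2 fold change -1.01). Some of these promoters are shared by neighbouring genes read in opposite directions.

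Calreticulin is encoded by CALR (ENSG00000179218), located at chr19:12938578-12944489 (plus strand) in GRCh38. Its level was 994, 1116, 1138, 1157 and 1178 CPM in the controls, replicates 1 to 5 in order here and in what follows, and with tunicamycin it was 2633, 2990, 3145, 3358 and 2707. All tunicamycin libraries lay far above the control libraries, which differed little among themselves. The rise was 2.66-fold (log2 fold change 1.41 with a standard error of 0.09, adjusted p = 6.39e-10). It occurred in 5 of 5 replicate pairs, with log2 ratios between 1.20 and 1.54. This change exceeded that of 97.2% of all genes tested. An exon of ENSG00000267458 on the opposite strand overlaps the 3′ end of CALR, where the reads fall, and the strand setting of the counting is known only as the pipeline's default.

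Calnexin, encoded by CANX (ENSG00000127022, chr5:179678628-179731641), started higher and rose less. Control replicates 1 to 5 had 1712, 1651, 1526, 1472 and 1645 CPM, and tunicamycin replicates had 2491, 2502, 2620, 2742 and 2298. The conditions did not overlap. The log2 fold change was 0.66 (standard error 0.08, adjusted p = 3.5e-06), or 1.58-fold, again with 5 of 5 pairs higher. A pseudogene on the same strand (HMGB3P22) and CBY3 on the opposite strand overlap CANX away from its 3′ end.

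By counts, the order of both lectins therefore changed. CANX was the more abundant in every control library, with no overlap between the genes, and CALR in every tunicamycin library, where the ranges of the genes overlapped. Within a library, the CALR to CANX count ratio averaged 0.697 in control cells and 1.17 with tunicamycin. Its log2 value ran from -0.78 to -0.35 in control libraries and from 0.08 to 0.29 with tunicamycin, a difference of 0.75 (standard error 0.08). A ratio within a library does not depend on how libraries are scaled. The exact permutation test over libraries gave p = 0.00794, the smallest that 5 against 5 allow. Adjusted over the 7 ratios examined, this became 0.0556, which misses 0.05. Over 7 ratios, a ratio at the smallest possible p passes this adjustment only if other ratios have small p-values too. The adjusted value therefore does not rest on its own separation alone.

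CALR and CANX together made up 79.6% ± 0.855 of the 10 genes' summed level in control cells and 86.7% ± 0.962 with tunicamycin (SD, n = 5 each). The sum over all 10 genes went from 3412 ± 90.9 to 6333 ± 452 CPM. Most of this sum is lectin transcript, so it says little of the rarer members.

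UGGT1 (ENSG00000136731, chr2:128091200-128195677), the main glucose-adding folding sensor, rose little, but in 5 of 5 replicate pairs. The log2 ratio of the pairs declined from 0.43 in replicate 1 to 0.25 in replicate 5. Its control libraries were the most uniform of all members, at 207, 203, 206, 208 and 207 CPM. Tunicamycin replicates 1 to 5 had 279, 268, 266, 257 and 246, all above the controls. This was a 1.28-fold rise (log2 fold change 0.35, standard error 0.07, adjusted p = 0.00117).

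The second sensor, UGGT2 (ENSG00000102595, chr13:95801580-96053482), was several times less abundant than UGGT1. It had 25.2, 29.6, 36.7, 30 and 44.5 CPM in control replicates and 41.8, 55.7, 50, 46.6 and 38.8 with tunicamycin. Control replicate 5 lay above 2 of the tunicamycin libraries, so the conditions overlapped, and 4 of 5 pairs were higher. The rise of 1.41-fold passed the test (log2 fold change 0.50, standard error 0.14, adjusted p = 0.011).

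The UGGT1 to UGGT2 ratio was 6.33 in control cells and 5.68 with tunicamycin. Its log2 value differed by -0.16 (standard error 0.16, exact permutation p = 0.357, adjusted p = 0.5), less than the spread between libraries. UGGT1 and UGGT2 exons overlap no other gene in GENCODE.

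The glucosidase genes were the group in which no change passed the test. MOGS (ENSG00000115275, chr2:74461057-74465410), which removes the outermost glucose, had 74.9, 79.8, 82.9, 96.4 and 99.8 CPM in control replicates and 90.9, 95.4, 93, 99.7 and 87.8 with tunicamycin. The tunicamycin values fell within the upper part of the control range. The log2 fold change was 0.11 with a 95% interval of -0.09 to 0.31 (adjusted p = 0.41).

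GANAB (ENSG00000089597, chr11:62624826-62646726), the catalytic subunit of glucosidase II, was the third most abundant member in control cells. It had 254, 283, 290, 274 and 286 CPM in control replicates and 261, 268, 269, 230 and 239 with tunicamycin. The ranges overlapped, and 1 of 5 pairs was higher. Its log2 fold change of -0.13 had an interval of -0.30 to 0.04 (adjusted p = 0.237).

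PRKCSH (ENSG00000130175, chr19:11435284-11450968), the regulatory subunit, had 52.4, 41, 42.7, 44.9 and 44 CPM in control replicates and 54.9, 42.5, 30.7, 39 and 55.4 with tunicamycin. Libraries of both conditions were mixed. The log2 fold change of -0.03 had an interval of -0.32 to 0.27 (adjusted p = 0.906), and its sign turned with the library left out. For all 3 genes the upper bound lies below the lower bounds of CALR, CANX and the EDEM genes. The intervals of MOGS and PRKCSH overlap those of UGGT1 (0.20 to 0.51) and UGGT2 (0.20 to 0.80), and that of GANAB overlaps neither. Differences between genes were tested only as the ratios given here. Opposite-strand genes overlap MOGS (ENSG00000286883) and PRKCSH (ODAD3) away from their 3′ ends.

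**Figure D2:**
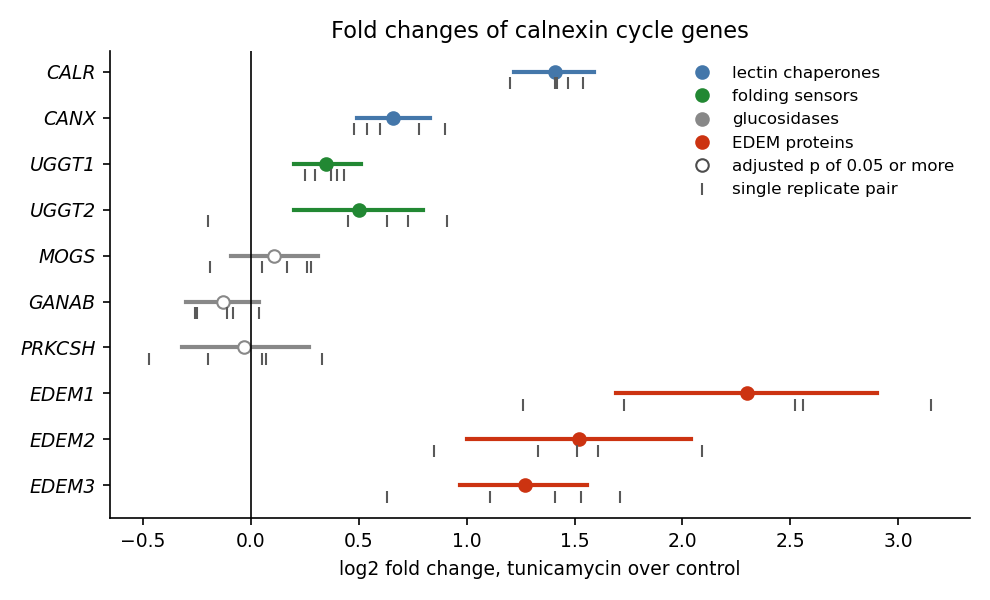
Log2 fold change of each gene, tunicamycin over control, with its 95% interval (line) from edgeR's fit and the log2 ratios of the 5 replicate pairs (ticks); open circles did not pass the test. The lines of the 3 glucosidase genes cross 0, and the EDEM genes lie at 1.27 to 2.30.

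Both subunits of glucosidase II kept their proportion within the spread between libraries. The GANAB to PRKCSH ratio was 6.17 in control cells and 5.81 with tunicamycin (difference on the log2 scale -0.09, standard error 0.20, exact permutation p = 0.667, adjusted p = 0.667). GANAB against MOGS shifted by -0.24 (standard error 0.09), lower in 5 of 5 pairs, with an exact permutation p of 0.0476 that became 0.0833 over the 7 ratios. As a share of the 10 genes' summed level, the glucosidase genes went from 12% ± 0.44 to 6.21% ± 0.589 (SD, n = 5 each), while their own sum was 409 ± 18 and 391 ± 16.2 CPM.

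The EDEM genes were the least abundant group and rose most. EDEM1 (ENSG00000134109, chr3:5187646-5219958), the founding member of the family, had 6.31, 3.88, 7.81, 8.21 and 9.31 CPM in control replicates, the lowest level of the 10 genes. With tunicamycin it had 15.3, 35.2, 26.2, 47.5 and 55.4. No library of either condition overlapped the other, although the tunicamycin libraries differed among themselves by several times. The rise was 4.91-fold (log2 fold change 2.30, standard error 0.29, adjusted p = 5.74e-06). It was larger than that of 99.3% of genes tested. As few as 19 counts lie behind a control value. An exon of ENSG00000268509 on the opposite strand overlaps EDEM1, but not at its 3′ end.

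EDEM2 (ENSG00000088298, chr20:35115364-35147336), which starts the mannose removal, had 7.69, 9.19, 13.4, 12.7 and 14 CPM in control replicates and 19.5, 26.4, 24.2, 54.4 and 43 with tunicamycin. The conditions did not overlap. It was 2.87-fold higher (log2 fold change 1.52, standard error 0.25, adjusted p = 0.000105).

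EDEM3 (ENSG00000116406, chr1:184690237-184754907), which continues the trimming, was the most abundant of the family. Control replicates had 18.7, 25.5, 26.6, 33.8 and 31.7 CPM and tunicamycin replicates 61.3, 73.8, 71.2, 52.5 and 68.4. Again the conditions did not overlap, and the tunicamycin libraries were closer together than for EDEM1 and EDEM2. The rise was 2.40-fold (log2 fold change 1.27, standard error 0.14, adjusted p = 1.4e-06). All 3 genes were higher in 5 of 5 pairs.

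In tunicamycin replicates 4 and 5, EDEM1 and EDEM2 were above the other 3 tunicamycin libraries, whereas EDEM3 in replicate 4 was the lowest of the 5. These 2 libraries are also the shallowest of the series, with 3567316 and 2234682 counts, and had mitochondrial shares of 28.8% and 24.6%. Without both of them, the log2 fold changes were 1.85 for EDEM1 (adjusted p = 5.33e-05), 1.04 for EDEM2 (adjusted p = 0.000708) and 1.34 for EDEM3 (adjusted p = 5.01e-06). The part of depth and of the mitochondrial share in these differences was not tested.

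**Figure D3:**
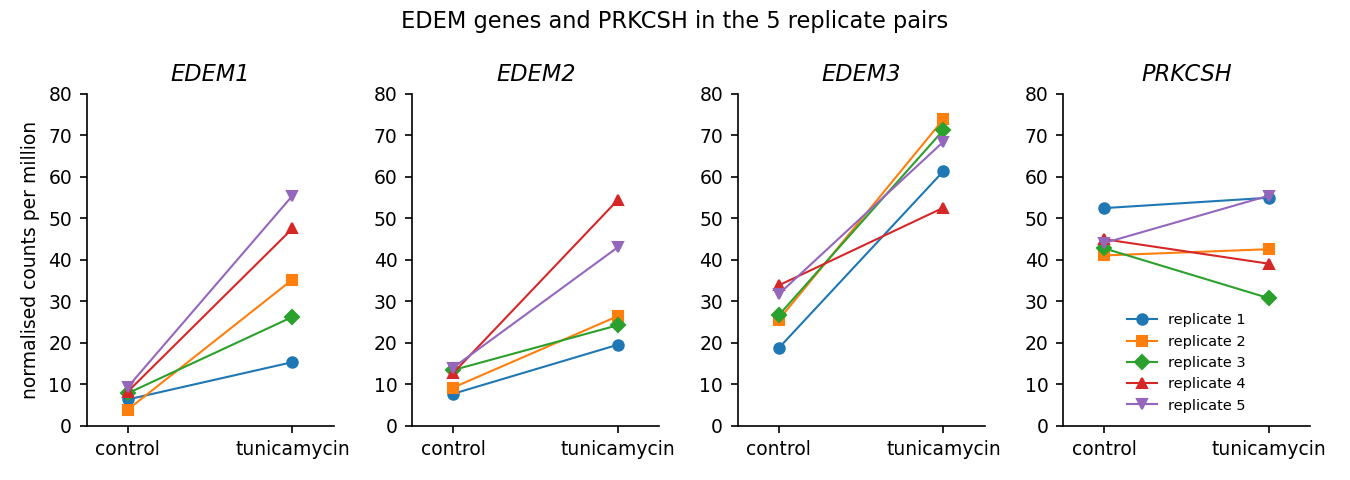
EDEM1, EDEM2, EDEM3 and, for comparison, PRKCSH in CPM; each line joins the control and the tunicamycin library of a replicate number. All lines of the EDEM genes climb, in EDEM1 and EDEM2 to the highest CPM for replicates 4 and 5, while those of PRKCSH go both ways.

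Within the family, EDEM1 was 15.5% ± 3.43 of the EDEM sum in control cells and 25.5% ± 7 with tunicamycin, and EDEM3 was 59.7% ± 4.26 and 50.4% ± 12.4 (SD, n = 5 each). The EDEM1 to EDEM2 ratio went from 0.617 to 1.05, a log2 difference of 0.77 (standard error 0.22), higher in 4 of 5 pairs and lower in replicate 1. Its exact permutation p of 0.0159 became 0.0556 over the 7 ratios. For EDEM1 against EDEM3 the log2 difference was 0.97 (standard error 0.40, exact permutation p = 0.0476, adjusted p = 0.0833), and it was 0.46 without tunicamycin replicates 4 and 5. EDEM2 against EDEM3 differed by 0.20 (standard error 0.34, exact permutation p = 0.635, adjusted p = 0.667). With all libraries, no ratio among the 7 had an adjusted p under 0.05. Without tunicamycin replicate 1, the ratios CALR to CANX, EDEM1 to EDEM2 and EDEM1 to EDEM3 each had an adjusted p of 0.037, with differences of 0.78, 0.87 and 1.22. Each was then at 0.0159, the smallest exact permutation p that 4 against 5 allow. The library left out held the lowest tunicamycin value of each of these ratios. In no other alternative did a ratio have an adjusted p under 0.05.

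**Figure D4:**
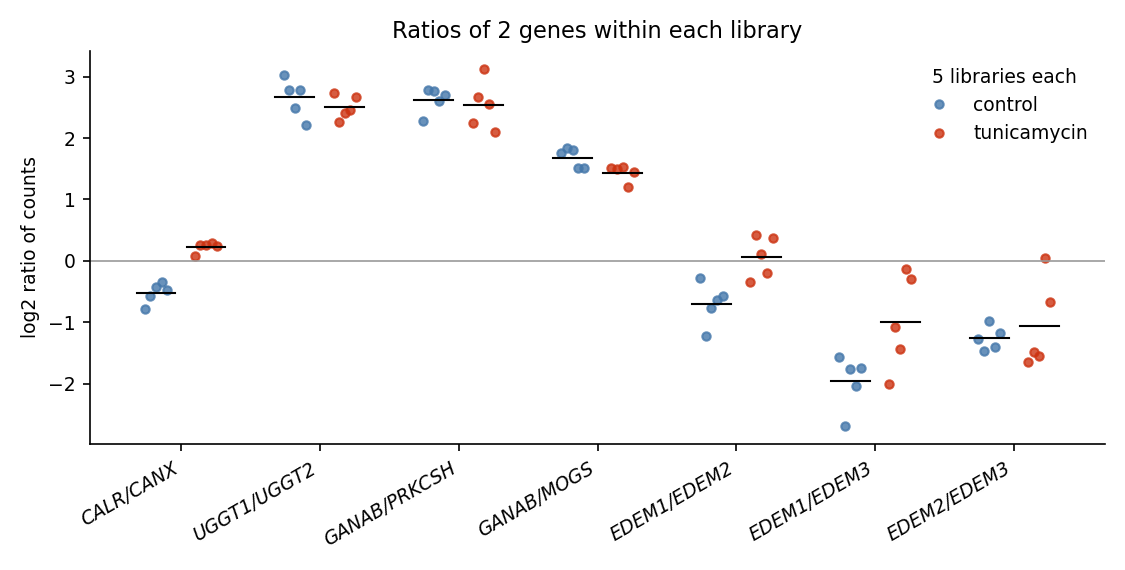
Log2 ratio of the counts of 2 genes within each library, control (blue) and tunicamycin (red), with black bars for means. CALR/CANX separates the conditions, from at most -0.35 to at least 0.08, and the other 6 ratios overlap.

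In control cells the order of the levels, from the highest, was CANX, CALR, GANAB, UGGT1, MOGS, PRKCSH, UGGT2, EDEM3, EDEM2 and EDEM1. Neighbours whose libraries overlapped were PRKCSH with UGGT2, UGGT2 with EDEM3, and EDEM2 with EDEM1. With tunicamycin the order was CALR, CANX, UGGT1, GANAB, MOGS, EDEM3, UGGT2, PRKCSH, EDEM1 and EDEM2. EDEM3 thus moved above UGGT2 and PRKCSH, although its libraries overlapped those of UGGT2, and the libraries of UGGT2, PRKCSH, EDEM1 and EDEM2 overlapped from one neighbour to the next. Among all genes tested, CANX was more abundant than 99.6% in control cells, and EDEM1 than 31.2%.

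Partners of the cycle and other lectins of the early secretory pathway were examined as a list of 13 genes, all tested. In edgeR's test 10 were higher (76.9%, against 17.6% of all genes tested) and 1 lower (7.69%, against 16.6%), with a median log2 fold change of 0.90. All 5 folding partners rose. PDIA3, the oxidoreductase ERp57 that calnexin and calreticulin recruit, went from 470 ± 63.3 to 945 ± 236 CPM (SD, n = 5 each; log2 fold change 1.01, adjusted p = 2.07e-05). PPIB, the prolyl isomerase cyclophilin B, had a log2 fold change of 1.54, SELENOF (listed as SEP15), a selenoprotein that binds the UGGT enzymes, one of 1.33, and CLGN, the calnexin homologue calmegin, one of 1.10. PPIB was uneven like EDEM1, at 445 and 363 in tunicamycin replicates 4 and 5 against 144 to 191 in the other 3, and its log2 fold change without those 2 libraries was 0.87 (adjusted p = 3.05e-05).

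Of the other 4 genes for ER lectins and mannosidase I, 2 rose. ERLEC1, a lectin that recognises trimmed mannoses, rose from 97.4 ± 6.33 to 199 ± 24.2 CPM (log2 fold change 1.03), and its relative OS9 rose as well (0.63). MAN1B1, the ER mannosidase I, and MLEC, the lectin malectin, had log2 fold changes of -0.14 and -0.05 and adjusted p-values of 0.501 and 0.68. OS9, MAN1B1 and MLEC are named to complete this group, after their values were seen. Of the 4 cargo receptor genes, 3 were higher (75%, against 17.6% of all genes tested) and 1 lower (25%, against 16.6%). MCFD2, the partner of LMAN1, rose most (1.13), and LMAN2L was the gene that fell (-0.40, adjusted p = 0.00925).

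The steps before the cycle, from dolichol to the transfer of the glycan, were covered by 36 genes, of which 35 were tested and TUSC3 was too low. Of these, 16 were higher (45.7%, against 17.6% of all genes tested) and 5 lower, with a median log2 fold change of 0.25. The share lower, 14.3%, was near the 16.6% of all genes. After thinning all libraries to the smallest, 14 were higher and 2 lower, and 3 were lower without control replicate 1, 2 or 5 or without tunicamycin replicate 3. Without tunicamycin replicate 4 the median was 0.12. DPAGT1, the enzyme that tunicamycin blocks, had 82.6, 61.9, 61.9, 69.5 and 62.6 CPM in control replicates and 85.1, 86.1, 78.7, 86.5 and 84.5 with tunicamycin. It was 1.24-fold higher (log2 fold change 0.31, adjusted p = 0.0171), with 5 of 5 pairs higher and overlap through control replicate 1. The call was lost without control replicate 2 (adjusted p = 0.0518), without tunicamycin replicates 4 and 5 (0.0557) and with library size as the only scaling (0.103).

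Within this list the oligosaccharyltransferase, which transfers the glycan, held 8 of the 16 increases. Of its 11 tested subunits, 8 were higher (72.7%, against 17.6% of all genes tested) and the other 3 were not called. Of these 3, KRTCAP2 had 0 to 5 counts per library, too few to judge. RPN1, a structural subunit, rose from 44.3 ± 7.01 to 188 ± 86.6 CPM (log2 fold change 2.07), and was 301 and 256 in tunicamycin replicates 4 and 5. Without those libraries its log2 fold change was 1.53. MAGT1, an oxidoreductase subunit, rose from 59.5 ± 3.89 to 168 ± 11.1 (1.50), and DDOST had a log2 fold change of 0.96. Of the 14 genes of lipid-linked assembly, 5 were higher (35.7%, against 17.6% of all genes tested) and 3 lower (21.4%, against 16.6%). ALG13, part of the enzyme of the second step, rose (1.73), with a lowest log2 fold change of 1.19 over the alternatives. It was uneven, at 44.4 and 31.4 CPM in tunicamycin replicates 4 and 5 against 11.4 to 21.8 in the others. ALG1 and ALG8 were called lower (-0.38 and -0.27), as was ALG10B (-1.14), which had 2 to 19 counts per library. ALG8 lost its call in 7 of the 10 fits without a single library, those without control replicate 1, 2, 3 or 5 and without tunicamycin replicate 2, 3 or 5. It also lost the call with no filter on low counts and after thinning. Over all alternatives its adjusted p was up to 0.0849. ALG1 lost its call after thinning (0.126). In dolichol supply NUS1 rose (1.75) and the other 4 genes did not pass the test. This share of 20% higher was near the 17.6% of all genes tested, and the median log2 fold change of the 5 genes was 0.02. Of the 5 genes for dolichol-linked sugar donors, 2 were higher (40%, against 17.6% of all genes tested) and 2 lower (40%, against 16.6%). Their median log2 fold change was 0.34. The 2 called lower were MPDU1 and DPM3, which both fell by 0.64 on the log2 scale.

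**Figure D5:**
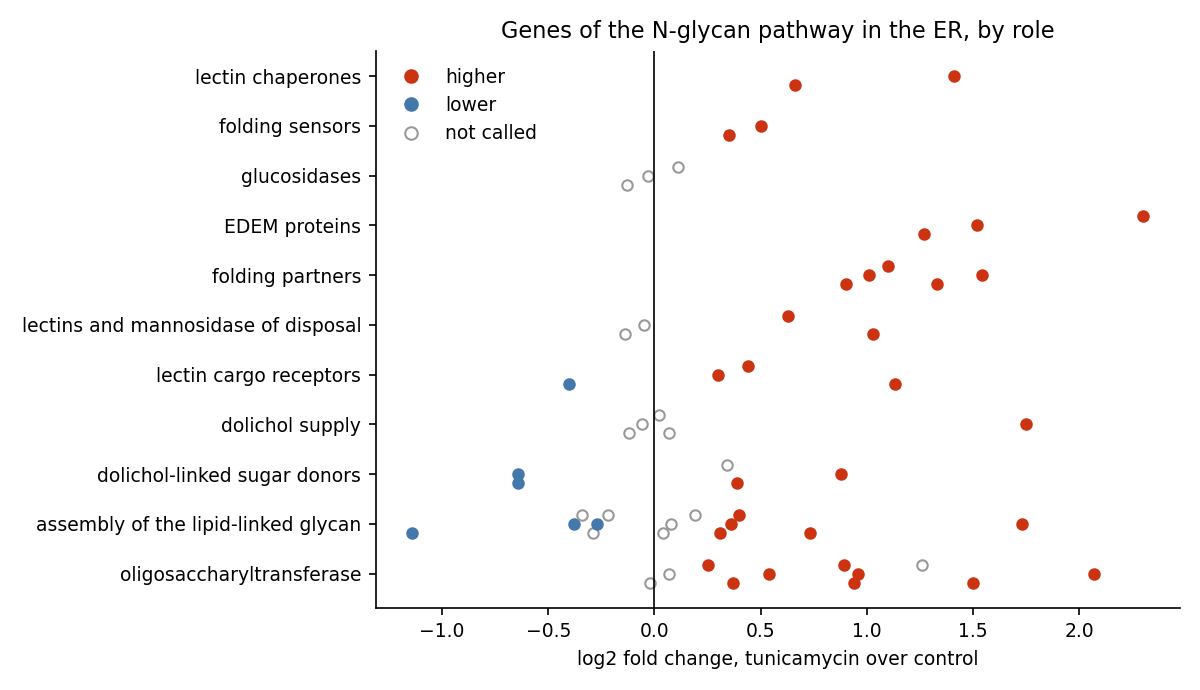
Log2 fold change of each tested gene of the 3 lists, tunicamycin over control, 1 row per role; filled points were called higher (red) or lower (blue) and open points were not called. The EDEM, lectin chaperone and folding partner rows lie wholly to the right of 0, the glucosidase row lies around 0, and the rows of precursor assembly spread to both sides.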

How the data were processed

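HepG2 RNA was sequenced as QuantSeq 3′ libraries, 5 per condition. Reads were aligned and counted by the authors with the nf-core RNA-Seq pipeline, using hg19, gene models from Ensembl and the pipeline's defaults. The deposited values are whole-number counts for each gene, not normalized or filtered. All sample columns were used and matched to libraries by name.

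From the counts, genes were kept by filterByExpr (minimum count 2, minimum total 10), scaled by TMM and tested by the quasi-likelihood method of edgeR 4.0.16 under R 4.3.3, with condition as the only term. Benjamini-Hochberg adjustment was made over the 12733 genes tested. Standard errors were derived from the fold change and its F statistic. Log2 ratios of 2 members used a pseudocount of 0.5 counts and a two-sided exact permutation test. The script was tested on simulated data. Depth was 2234682 to 5029864 counts per library, so levels under about 10 CPM rest on few counts.

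The series text places the replicates on separate days, so that equal numbers pair 2 libraries. In 10736 genes, deviations from the condition mean correlated between both libraries of a number with r = 0.317, 0.0171, 0.0391, 0.122 and 0.0864 (replicates 1 to 5 in order).

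Members, lists and tests were chosen with earlier results of these data known. Named genes are the members, DPAGT1, PDIA3, HSPA5, DDIT3, HERPUD1 and, from each of the 2 other lists, the called genes with at least 20 normalized counts and the 5 largest changes in each direction. XBP1, OS9, MAN1B1, MLEC, TUSC3, KRTCAP2 and ALG10B were named after their values were seen. Alternatives were DESeq2 1.42.0, its size factors, library size only, no filter, default minimums, the replicate block, thinning, removal of mitochondrial genes and each library left out. Leaving out tunicamycin replicates 4 and 5 together was added after seeing the data. Loci are from GENCODE v44 on GRCh38, matched by Ensembl identifier, and promoters from RefSeq; no hg19 coordinate is given.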

Additional observations from a re-analysis of the deposited data

Results flagged for a closer look

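Over the levels of the named genes and the 7 ratios, 74 sets of 5 libraries were searched for a value standing apart from the remaining 4. There were 3, and chance gives about 3.7. DPAGT1 had 78.7 CPM in tunicamycin replicate 3, against 84.5 to 86.5 in the others. The log2 ratio of CALR to CANX was 0.08 in tunicamycin replicate 1, against 0.24 to 0.29. That of GANAB to MOGS was 1.21 in tunicamycin replicate 4, against 1.44 to 1.53. The values fall in 3 libraries, and their cause was not tested.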

How the results depend on the processing

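The number of calnexin cycle genes called, 7 higher and 0 lower, was the same in each alternative, and their median log2 fold change ran from 0.50 with library size only to 0.65 over the fits without a single library. The fit with the replicate block also gave 7 and 0, with 2499 genes higher and 2312 lower over all, and changed no call of a named gene. The median of the list of partners and lectins was 0.73 to 0.97 over the fits without a single library. For the precursor and transfer list it was 0.17 with library size only, 0.17 after thinning, 0.15 without tunicamycin replicates 4 and 5 and 0.12 to 0.29 without a single library, and the number lower was 2 after thinning and 3 to 5 without a single library. PRKCSH turned from -0.03 to just above 0 (0.00) after thinning, to 0.03 without control replicate 1 and to 0.09 and 0.02 without tunicamycin replicate 3 and 4, and ran from -0.13 to 0.09 without a single library. Without a single library the ratio differences ran from 0.68 to 0.79 for CALR/CANX, -0.27 to -0.06 for UGGT1/UGGT2, -0.23 to 0.02 for GANAB/PRKCSH, 0.63 to 0.87 for EDEM1/EDEM2, 0.76 to 1.22 for EDEM1/EDEM3 and -0.08 to 0.35 for EDEM2/EDEM3. Without tunicamycin replicates 4 and 5, GANAB/PRKCSH turned to 0.05 and EDEM2/EDEM3 to -0.30. With library size only, 1774 genes were higher and 2570 lower over all, against 2237 and 2116 with TMM. The cause of these shifts was not tested. Of 570 results for named genes over all alternatives, 553 kept their direction and their side of the threshold. Among the calnexin cycle genes, depth limits EDEM1 and EDEM2 most, at 19 and 39 counts in their lowest libraries, and ALG13 and NUS1 had as few as 28 and 38.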
